A study of Sus scrofa with 35 samples.

Results

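This account compares porcine 4-cell embryos that overexpressed OTX2 with wild-type 4-cell embryos, using 6 of the 35 samples of a study of porcine expanded potential stem cells (pEPSCs). Embryos were chosen by the sample titles, and the groups were OTX2 overexpression with 3 libraries and wild type with 3 libraries. Each library was made from a pool of 10 embryos freed of their zona pellucida, with an oligo-dT primed, modified Smart-seq2 protocol. The study as a whole profiled chromatin, factor binding and expression along the passage between totipotent and pluripotent states. The same gene was overexpressed in pEPSCs, stem cells with a broad developmental potential, and those 3 libraries and their 3 wild-type libraries are used near the end. The labels do not say how or into which cells OTX2 was introduced, what the wild-type embryos received in its place, how the embryos were produced, or whether the libraries of a group came from separate collections. The p-values below therefore measure only the spread between these libraries, which may be technical.

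OTX2 is a homeodomain transcription factor known for its part in the pluripotent epiblast and the forebrain. In the pig, the major wave of transcription from the embryonic genome begins around the 4-cell stage, so that embryos of this stage hold stored maternal transcripts beside newly made ones. Genes known to mark this activation include PRD-like homeobox genes such as LEUTX, ARGFX, DPRX and DUXA, while maternal transcripts include those for oocyte proteins such as GDF9, BTG4 and NPM2. The unit used here, TPM, gives a transcript as a share of all transcripts in its library, corrected for transcript length.

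Of 8643 genes in the deposited embryo data, 8550 had at least 1 TPM in at least 3 libraries and were tested. The libraries were close in their number of genes at 1 TPM or more, between 8178 and 8317 with OTX2 overexpression and between 8178 and 8253 in wild type. Oocyte transcripts summed to 19702, 20134 and 20738 TPM with OTX2 overexpression, against 14612, 14280 and 14129 TPM in wild type. Of 18 cumulus and granulosa cell markers 1 was in the data, at a summed level between 11.2 and 11.8 TPM with OTX2 overexpression and between 6.99 and 9.68 TPM in wild type, and none of 11 sperm and white cell markers was. Transcripts of the mitochondrial genome took 51.3, 51.3 and 51.8% of all TPM with OTX2 overexpression, against 55.5, 57.1 and 57.5% in wild type. The mean difference was −5.23 percentage points, the groups did not overlap, and the exact two-sided permutation p was 0.1, the smallest that 3 against 3 libraries can give. Reads per library are unknown from TPM, so no counting interval is given and a value of 0 is described as listed at 0.

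OTX2 itself was at 8276, 9001 and 10565 TPM with OTX2 overexpression, against 327, 283 and 321 TPM in wild type. The groups did not overlap, and OTX2 was 29.9-fold higher by mean TPM (adjusted p = 1.35e-06, log2 fold change 4.89, SE 0.136). OTX2 (gene 100512643) lies at chr1:186028575-186039026 in Sscrofa11.1. Transcripts of the introduced copy and of the embryo's own gene cannot be told apart in these values. After OTX2, the next largest rise among genes named here was ID3, at a log2 fold change of 1.82.

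With OTX2 overexpression, 678 genes were lower (7.93% of those tested) and 1835 were higher (21.5%) at a limma adjusted p under 0.05 over all genes tested. The lower genes moved further. A change of at least 2-fold on the log2(TPM + 1) scale was reached by 468 lower genes (5.47%) and by 162 higher genes (1.89%). The scale understates the change of genes at a few TPM. The median log2 fold change over all genes was 0.28 rather than 0, so a gene below that value fell relative to the bulk of genes.

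The count of higher genes depended on how the libraries were scaled, and the count of lower genes depended on it less. When mitochondrial transcripts were removed and the nuclear genes brought back to the same total, 662 genes were higher (7.78%) and 729 lower (8.56%), and 98 (1.15%) and 557 (6.54%) changed at least 2-fold. The median of all genes was then 0.16. When the libraries were divided by median-ratio size factors, which set the median gene near 0, 291 were higher (3.40%) and 845 lower (9.88%), and 25 (0.292%) and 579 (6.77%) changed at least 2-fold. The median was then 0.02. With quantile normalization 611 were higher (7.15%) and 755 lower (8.83%), of which 58 (0.678%) and 523 (6.12%) changed at least 2-fold. As deposited, after nuclear rescaling and under median-ratio scaling alike, 677 genes were lower (7.92%) and 291 higher (3.40%). Among the 2-fold lower genes, 102 had at least 1 TPM in wild-type libraries alone, so that the filter on low values admitted them only because wild type was high. Likewise, 30 of the 1835 higher genes had at least 1 TPM in OTX2 libraries alone. Leaving out OTX2 library 2 reduced the higher genes to 426 (4.98%) and the lower genes to 437 (5.11%). Without OTX2 library 3 and without wild-type libraries 2 and 3, the higher genes numbered 837, 563 and 913 (9.79, 6.58 and 10.7%). The lower genes numbered 525, 459 and 510 (6.14, 5.37 and 5.96%). The counts for gene groups below are therefore set beside the shares of all genes, 21.5% higher and 7.93% lower as deposited. A count near those shares is not a result about the group. Group counts without a library or under another scaling are to be read beside the shares of all genes in that same setting.

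**Figure D1:**
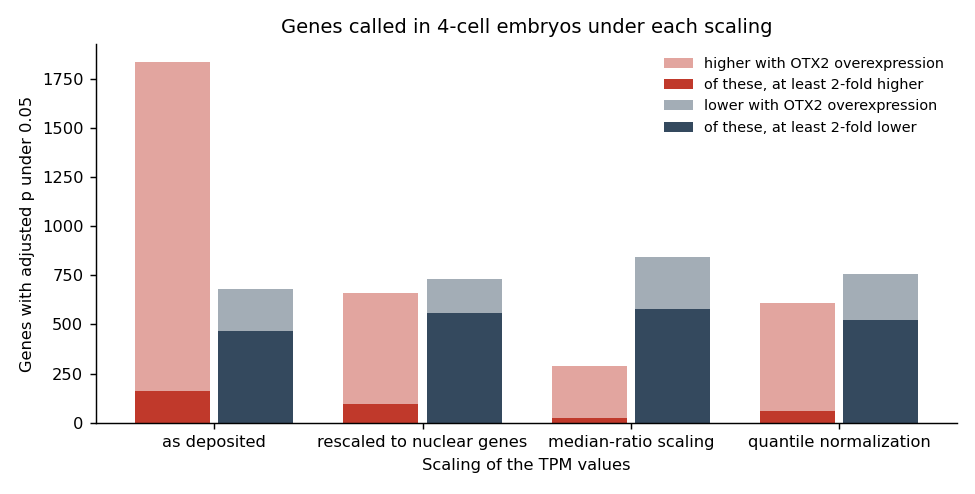
Number of genes with a limma adjusted p under 0.05 (vertical axis) under 4 scalings of the TPM values (horizontal axis), higher (red, left) and lower (blue, right) with OTX2 overexpression, with the part that changed at least 2-fold in the full colour. Higher genes number 1835 as deposited and 291 with median-ratio scaling, while lower genes stay between 678 and 845.

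The cleavage-stage and genome activation genes were the list with the lowest median among those with at least 10 tested members, and none of its members was higher. Of 29 genes on it, 12 were measured and tested, 8 were lower (66.7%, beside 7.93% of all genes) and 4 were not called. Their median log2 fold change was −1.74, beside 0.28 for all genes, and 2 of the 8 (DPRX and UBTFL1) passed the filter through wild-type libraries alone. LEUTX, a PRD-like homeobox gene of genome activation, was at 80.8, 13.3 and 12.4 TPM with OTX2 overexpression, against 346, 538 and 631 TPM in wild type. All 3 OTX2 libraries lay below all 3 wild-type libraries, with library 1 of the OTX2 group nearest to wild type, and the mean was 7.03% of the wild-type mean (adjusted p = 0.00323, log2 fold change −4.29, SE 0.625). Each library holds whole embryos, so fewer cells expressing a gene and less of its RNA per cell cannot be told apart, here and below.

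ARGFX was at 2.07, 0.164 and 0.0923 TPM with OTX2 overexpression, against 9.204, 12.7 and 29.2 TPM in wild type, and its groups did not overlap (adjusted p = 0.00314, log2 fold change −3.36, SE 0.485). DPRX was at 0.369, 0 and 0.0923 TPM with OTX2 overexpression, against 2.37, 3.47 and 6.02 TPM in wild type (adjusted p = 0.0022, log2 fold change −2.05). KLF17, a zinc finger factor of the cleavage embryo, was at 2.21, 0.1101 and 0.878 TPM with OTX2 overexpression, against 7.18, 10.5 and 22.3 TPM in wild type (adjusted p = 0.00512, log2 fold change −2.78). In each of these 3 genes every OTX2 library lay below every wild-type library. UBTFL1, a relative of the nucleolar factor UBTF, was at 0.303, 0.476 and 0.193 TPM with OTX2 overexpression, against 5.94, 14.4 and 15.3 TPM in wild type (adjusted p = 0.000725, log2 fold change −3.19). NFYA, the DNA-binding subunit of the CCAAT-box factor NF-Y, was at 4.87, 2.79 and 3.23 TPM with OTX2 overexpression, against 10.8, 19.6 and 17.7 TPM in wild type (adjusted p = 0.00249, log2 fold change −1.87). HSPA8, a constitutive heat shock protein, was at 40.7, 25.5 and 35.4 TPM with OTX2 overexpression, against 78.3, 95.8 and 150.2 TPM in wild type (adjusted p = 0.00441, log2 fold change −1.62).

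DUXA, another PRD-like gene, was at 188, 185 and 192 TPM with OTX2 overexpression, against 176, 195 and 177 TPM in wild type, and the groups overlapped (log2 fold change 0.04, SE 0.112, adjusted p = 0.778). Its value was −0.26 under median-ratio scaling, where it was not called either. EIF1AX, a translation initiation factor, was at 29, 22.5 and 14.8 TPM with OTX2 overexpression, against 26.7, 46.8 and 47.4 TPM in wild type (adjusted p = 0.0556, log2 fold change −0.84), and it was called lower under median-ratio scaling (adjusted p = 0.0433). KLF5 and DPPA4 had overlapping groups and adjusted p-values of 0.764 and 0.536. DPPA2, a chromatin factor that pairs with DPPA4, was at 21.02, 18.1 and 13.05 TPM with OTX2 overexpression, against 21.8, 58.6 and 49.9 TPM in wild type, so that OTX2 library 1 and wild-type library 1 almost met (adjusted p = 0.0354, log2 fold change −1.18). Its call was lost when library 2 or 3 of either group was left out, with adjusted p-values between 0.093 and 0.119.

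**Figure D2:**
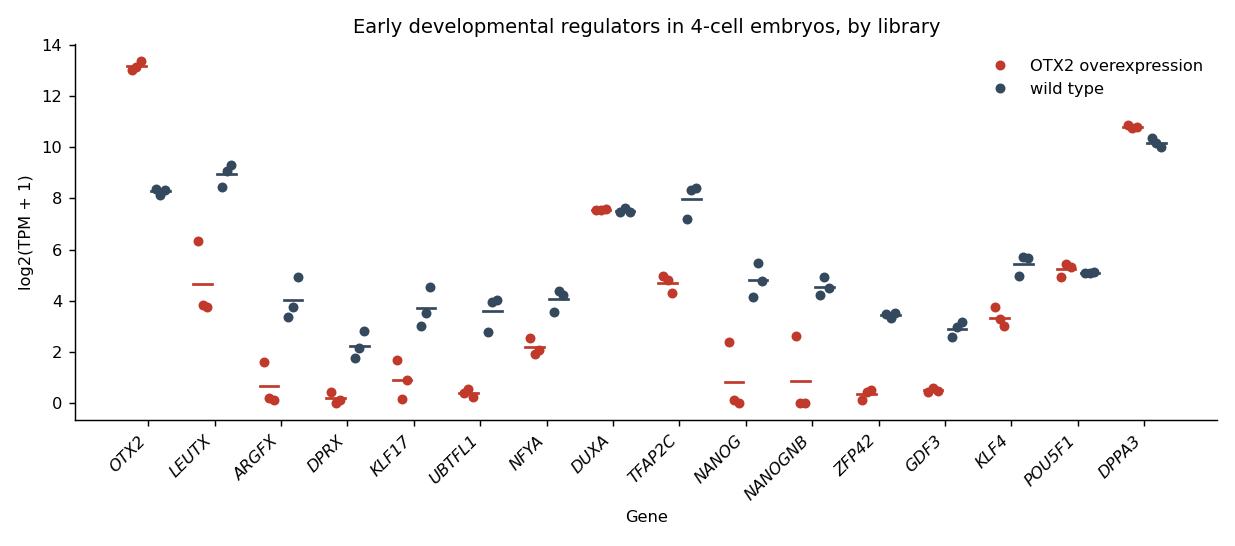
Expression of OTX2 and 15 early developmental regulators as log2(TPM + 1) (vertical axis) in each library, OTX2 overexpression (red) left of wild type (dark blue), with the group mean as a line. LEUTX, ARGFX, DPRX, KLF17, UBTFL1, NFYA, TFAP2C, NANOG, NANOGNB, ZFP42, GDF3 and KLF4 are lower in all 3 OTX2 libraries, DUXA and POU5F1 overlap, and DPPA3 is higher.

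Of 15 measured core pluripotency genes, 6 were lower and none was higher, beside 7.93% lower and 21.5% higher among all genes, and the median log2 fold change was −0.29. The lower count was between 4 and 7 when each library was left out, and 2 of the 6, ZFP42 and GDF3, passed the filter through wild type alone. DPPA2, described above, is also among the 6, so this list and the cleavage-stage list share members and are not separate results. NANOG, a homeobox factor of the pluripotent epiblast, was at 4.18, 0.101 and 0 TPM with OTX2 overexpression, against 16.5, 43.2 and 26.5 TPM in wild type. It was lower in every OTX2 library (adjusted p = 0.00396, log2 fold change −3.95, SE 0.6099), but the symbol stands for 2 annotated loci, whose reads may be shared. NANOGNB, a homeobox gene that neighbours DPPA3, is described here as one of the 15 named genes with the largest falls. It was at 5.08, 0 and 0 TPM with OTX2 overexpression, against 17.7, 29.2 and 21.7 TPM in wild type (adjusted p = 0.00599, log2 fold change −3.68). ZFP42, also known as REX1, was at 0.0951, 0.3597 and 0.411 TPM with OTX2 overexpression, against 10.2, 9.1 and 10.6 TPM in wild type (adjusted p = 7.26e-05, log2 fold change −3.09, SE 0.168). GDF3, a TGF-beta family ligand, was at 0.352, 0.4904 and 0.386 TPM with OTX2 overexpression, against 5.01, 6.95 and 7.94 TPM in wild type (adjusted p = 0.000226, log2 fold change −2.42).

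KLF4, a reprogramming factor, was at 12.4, 8.699 and 6.999 TPM with OTX2 overexpression, against 30.3, 51.1 and 50.4 TPM in wild type, with no overlap (adjusted p = 0.00159, log2 fold change −2.11, SE 0.253). DPPA5 was abundant in both groups, at 2097, 2053 and 2131 TPM with OTX2 overexpression, against 3138, 2686 and 3077 TPM in wild type, and fell (adjusted p = 0.0171, log2 fold change −0.50). Its call was lost without OTX2 library 2 or 3 or without wild-type library 3, with adjusted p-values of 0.0856, 0.0548 and 0.0508. POU5F1, which encodes OCT4, was at 29.7, 42.8 and 38.7 TPM with OTX2 overexpression, against 32.9, 32.6 and 34.1 TPM in wild type, and the groups overlapped (adjusted p = 0.507, log2 fold change 0.14). LIN28A, SALL4 and ESRRB were not called either, with adjusted p-values between 0.104 and 0.362. LIN28B was at 6.46, 10.1 and 9.87 TPM with OTX2 overexpression, against 4.79, 5.404 and 6.72 TPM in wild type (adjusted p = 0.0708, log2 fold change 0.55).

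Of 20 genes on the trophoblast list only 3 were in the data, and all 3 were lower, beside 7.93% of all genes. PTGES and ANXA1 passed the filter through wild type alone, so this count rests on TFAP2C and is not a result about trophoblast genes. TFAP2C, an AP-2 transcription factor of early embryos and trophoblast, was at 30.5, 27.1 and 18.9 TPM with OTX2 overexpression, against 144, 317 and 341 TPM in wild type. Its mean was 9.54% of the wild-type mean (adjusted p = 0.000732, log2 fold change −3.27, SE 0.324). PTGES, a prostaglandin E synthase, was at 0.17, 0.277 and 0.1305 TPM with OTX2 overexpression, against 2.76, 3.53 and 5.32 TPM in wild type, and ANXA1, annexin A1, at 0, 0 and 0.144 TPM with OTX2 overexpression, against 1.39, 3.57 and 2.62 TPM in wild type. CDX2, GATA3, KRT8 and KRT18 were not analysed here, and SOX17, GATA6 and PDGFRA of the hypoblast were not either. GATA4, an endoderm factor, was higher at 4.62, 6.25 and 7.78 TPM with OTX2 overexpression, against 3.602, 3.03 and 3.26 TPM in wild type (adjusted p = 0.0271, log2 fold change 0.73), a call that was lost under median-ratio scaling (adjusted p = 0.127) and without library 2 or 3 of either group (up to 0.0985).

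Of 13 measured primitive streak, NODAL and WNT genes, 4 were lower (30.8%, beside 7.93% of all genes) and 1 higher, but 3 of the lower genes passed the filter through wild type alone. GSC, a homeobox gene of the organizer, was at 0.812, 0.336 and 0 TPM with OTX2 overexpression, against 4.33, 8.07 and 10.7 TPM in wild type (adjusted p = 0.00174, log2 fold change −2.62). FZD7, a WNT receptor, was at 0.694, 0.966 and 0.7002 TPM with OTX2 overexpression, against 3.403, 4.76 and 7.01 TPM in wild type (adjusted p = 0.00228, log2 fold change −1.72). SP5, a WNT target, and SKIL, a SMAD repressor, were the other lower genes, with log2 fold changes of −1.41 and −0.61. SKIL lost its call without OTX2 library 2 or wild-type library 2 or 3 (up to 0.104). ACVR1B, a receptor for activin and NODAL, was higher at 4.62, 4.84 and 4.403 TPM with OTX2 overexpression, against 2.23, 2.52 and 2.298 TPM in wild type (adjusted p = 0.00954, log2 fold change 0.75), a call that was lost under median-ratio scaling (adjusted p = 0.0567) and without OTX2 library 2 (0.0536).

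Of 22 anterior neural genes, 2 were tested. PAX6, a paired homeobox factor of eye and brain, was at 167, 213 and 264 TPM with OTX2 overexpression, against 128, 146 and 135 TPM in wild type (adjusted p = 0.0302, log2 fold change 0.63) as deposited, and it was not called under median-ratio scaling (adjusted p = 0.253) or without any 1 library except OTX2 library 1 (up to 0.102). HESX1 overlapped between the groups.

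The inhibitors of differentiation ID3 and ID2, which block basic helix-loop-helix factors, moved in opposite directions. ID3 was at 562, 722 and 1082 TPM with OTX2 overexpression, against 244, 191 and 212 TPM in wild type, 3.66-fold higher by mean (adjusted p = 0.00193, log2 fold change 1.82, SE 0.229). ID2 was at 0.624, 4.55 and 2.02 TPM with OTX2 overexpression, against 9.19, 9.19 and 13.2 TPM in wild type (adjusted p = 0.0114, log2 fold change −1.92). BMP4, a ligand of the pathway that is known to induce ID genes, was at 5.49, 6.997 and 9.16 TPM with OTX2 overexpression, against 11.4, 29.1 and 38.3 TPM in wild type (adjusted p = 0.0203, log2 fold change −1.60). ID3 and ID2 kept their direction and call under median-ratio scaling (adjusted p = 0.00278 and 0.00733), and BMP4 lost its call without OTX2 library 2 or without wild-type library 2 or 3 (adjusted p between 0.0577 and 0.0753). Over the list of early signalling genes, 6 of 23 were higher (26.1%) and 2 lower (8.70%) as deposited, near the 21.5% and 7.93% of all genes. Under median-ratio scaling 1 was higher and 2 lower, and 1 was higher without OTX2 library 2 or 3 or wild-type library 2.

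Cytosolic ribosomal protein genes were lower as a group. Of 78 tested, 49 were lower, 1 was higher and 28 were not called, beside 7.93% lower and 21.5% higher among all genes. Of the 49, 1 (RPL13) passed the filter through wild type alone. Their median log2 fold change was −1.12 as deposited and −1.42 under median-ratio scaling, where 54 were lower and none higher. The lower count was between 41 and 50 when each library was left out. Most genes of this family have processed pseudogenes whose reads may be shared with them, and the counting rule for such reads is not given in the sources used here.

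RPL34 was at 1.19, 1.25 and 2.104 TPM with OTX2 overexpression, against 21.6, 31.7 and 41.9 TPM in wild type (adjusted p = 0.000159, log2 fold change −3.67, SE 0.252). RPL37A was at 7.31, 7.02 and 5.37 TPM with OTX2 overexpression, against 48.6, 53.9 and 82.8 TPM in wild type (adjusted p = 0.000187, log2 fold change −3.02). RPS13 was at 8.92, 5.42 and 5.11 TPM with OTX2 overexpression, against 45.95, 95.8 and 112 TPM in wild type (adjusted p = 0.000697, log2 fold change −3.46). In each of these genes, wild-type library 1 was the lowest of its group, and no library of one group reached the other. RPS19, which is known for its mutation in Diamond-Blackfan anaemia, was at 12.4, 1.16 and 2.11 TPM with OTX2 overexpression, against 34.1, 61.1 and 119 TPM in wild type (adjusted p = 0.00645, log2 fold change −3.83). RPS27 and FAU had log2 fold changes of −3.03 and −2.68.

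The 5 members with the highest mean in wild type, RPS28, RPS20, RPS24, RPLP0 and RPLP1, were singled out after their values were seen. RPS28 was at 516, 825 and 722 TPM with OTX2 overexpression, against 616, 627 and 622 TPM in wild type, and the groups overlapped. RPLP0, a stalk protein of the large subunit, overlapped too, at 313, 518 and 584 TPM with OTX2 overexpression, against 457, 361 and 428 TPM in wild type. RPLP1, its partner in the stalk, was lower at 157, 153 and 166 TPM with OTX2 overexpression, against 273, 319 and 487 TPM in wild type (adjusted p = 0.0071, log2 fold change −1.13), and RPS20 was lower as well (log2 fold change −0.49, adjusted p = 0.0311). RPS24 was the member that rose, at 728, 653 and 736 TPM with OTX2 overexpression, against 485, 489.5 and 400.3 TPM in wild type (adjusted p = 0.0117, log2 fold change 0.63), and it was not called under median-ratio scaling (adjusted p = 0.159). Summed over the family, ribosomal protein transcripts reached 4072, 4886 and 5106 TPM with OTX2 overexpression, against 5706, 6461 and 7456 TPM in wild type, an exact two-sided permutation p of 0.1, the smallest possible. Of the 39 members with the higher mean over all 6 libraries 22 were lower, with a median of −0.93. Of the other 39 members 27 were lower, RPL13 among them, with a median of −1.47.

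**Figure D3:**
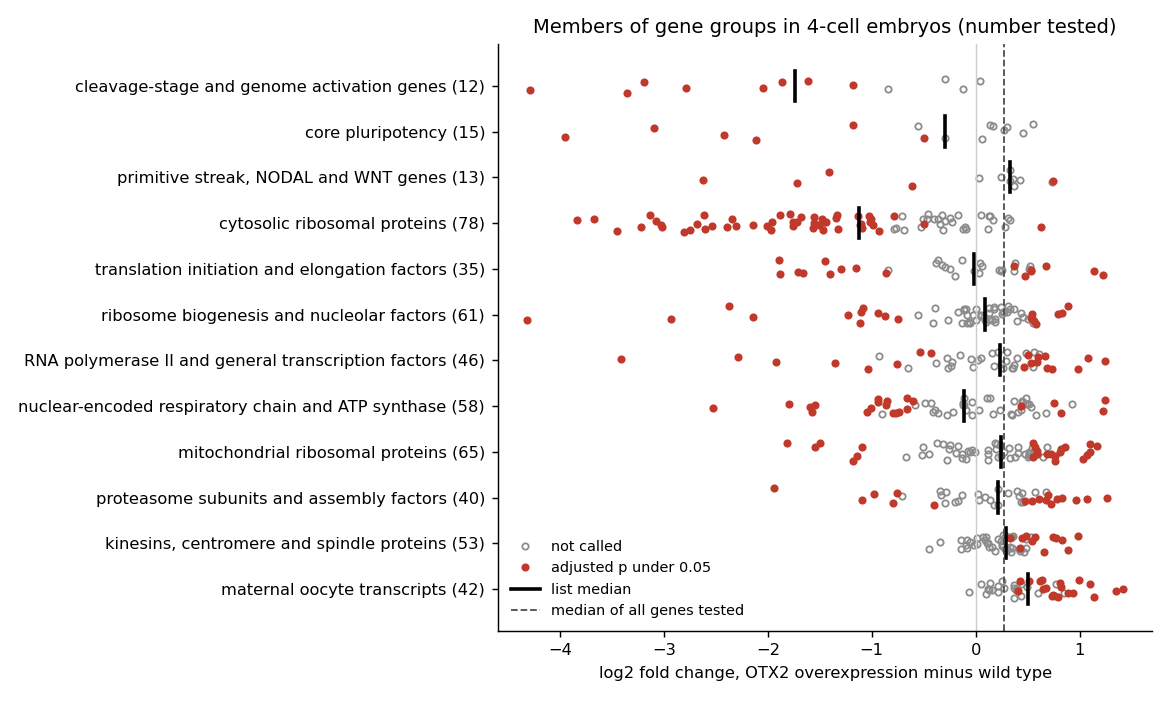
Log2 fold change of OTX2 overexpression minus wild type (horizontal axis) for each tested member of 12 gene groups (rows, number tested in brackets), filled red where the adjusted p was under 0.05 and open grey where not, with the median of the group as a black bar and that of all genes (0.28) as a dashed line. The medians run from −1.74 for cleavage-stage genes and −1.12 for ribosomal proteins to 0.50 for maternal oocyte transcripts.

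Other parts of the translation machinery split between lower and higher genes. Of 61 ribosome biogenesis factors 11 were lower (18.0%, beside 7.93% of all genes) and 7 higher (11.5%, beside 21.5%), and under median-ratio scaling 13 were lower and none higher. The lower count was 4 without OTX2 library 2 and 5 without wild-type library 2, and 1 of the 11, NOP2, passed the filter through wild type alone. EMG1, a pseudouridine methyltransferase of the small subunit, was at 0.619, 1.56 and 1.87 TPM with OTX2 overexpression, against 28.5, 47.5 and 64.5 TPM in wild type (adjusted p = 0.000192, log2 fold change −4.31, SE 0.317). NHP2 and NOP10, partners in the box H/ACA particle that guides pseudouridylation, were both lower. NHP2 was at 4.89, 1.898 and 2.14 TPM with OTX2 overexpression, against 16.6, 28.6 and 44.3 TPM in wild type (adjusted p = 0.00211, log2 fold change −2.93), and NOP10 at 182, 175 and 199.5 TPM with OTX2 overexpression, against 330.2, 372 and 319.6 TPM in wild type (adjusted p = 0.00269, log2 fold change −0.87). DDX10, an RNA helicase, was higher as deposited (log2 fold change 0.79) and not called under median-ratio scaling (adjusted p = 0.0693).

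Of 35 translation factors 9 were lower (25.7%, beside 7.93% of all genes) and 7 higher (20.0%, near the 21.5% of all genes), and without OTX2 library 2 there were 4 lower and 2 higher. EIF4G1, among the lower ones, passed the filter through wild type alone. DENR, which acts in re-initiation, was among the 15 named genes with the largest falls. It was at 1.38, 0.929 and 1.39 TPM with OTX2 overexpression, against 15.2, 25.96 and 39.2 TPM in wild type (adjusted p = 0.000367, log2 fold change −3.55). EIF4A1, the helicase of the cap-binding complex, was at 44.5, 31.8 and 38.5 TPM with OTX2 overexpression, against 71.1, 98.9 and 151 TPM in wild type (adjusted p = 0.00778, log2 fold change −1.40), and EEF1B2, an elongation factor subunit, at 11.3, 12.6 and 16.5 TPM with OTX2 overexpression, against 22.9, 38.5 and 45.3 TPM in wild type (adjusted p = 0.00937, log2 fold change −1.30). EIF1B, a start-codon selection factor, moved the other way, at 216, 277 and 347 TPM with OTX2 overexpression, against 148, 96.5 and 112 TPM in wild type (adjusted p = 0.00614, log2 fold change 1.23). It stayed called higher under median-ratio scaling (adjusted p = 0.0161).

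Among the transcription machinery, 8 of 46 RNA polymerase II and general factor genes were lower (17.4%, beside 7.93% of all genes) and 11 higher (23.9%, near the 21.5% of all genes) as deposited, and 9 were lower and 3 higher under median-ratio scaling. Without OTX2 library 2, 5 were lower and 2 higher. SUPT4H1, an elongation factor subunit of DSIF, was at 27.4, 3.66 and 14.1 TPM with OTX2 overexpression, against 81.7, 169.8 and 169 TPM in wild type (adjusted p = 0.0062, log2 fold change −3.41, SE 0.592). GTF2F1, a subunit of TFIIF, was at 4.94, 2.93 and 2.95 TPM with OTX2 overexpression, against 15.1, 24.99 and 24.6 TPM in wild type (adjusted p = 0.00111, log2 fold change −2.29). POLR2B, the second largest subunit of the polymerase, was at 2.98, 1.798 and 1.62 TPM with OTX2 overexpression, against 6.805, 11.3 and 15.6 TPM in wild type (adjusted p = 0.00368, log2 fold change −1.92). GTF2A2, a subunit of TFIIA, was higher at 504, 710.5 and 683 TPM with OTX2 overexpression, against 402, 288 and 271 TPM in wild type (adjusted p = 0.00964, log2 fold change 0.99), with no overlap and an adjusted p of 0.0361 under median-ratio scaling.

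The Mediator complex, which links activators to the polymerase, had 5 lower and 4 higher genes of 23 (21.7 and 17.4%, beside 7.93 and 21.5% of all genes). MED31 was at 17.1, 4.57 and 5.23 TPM with OTX2 overexpression, against 37.7, 50.1 and 90.6 TPM in wild type (adjusted p = 0.00604, log2 fold change −2.72) and MED11 at 1.11, 2.04 and 1.87 TPM with OTX2 overexpression, against 6.58, 9.33 and 13.7 TPM in wild type (adjusted p = 0.00228, log2 fold change −1.99). MED30 was higher, at 16.99, 24.4 and 26.01 TPM with OTX2 overexpression, against 8.59, 6.82 and 11.97 TPM in wild type (adjusted p = 0.00809, log2 fold change 1.22). Of 30 core spliceosome genes 7 were lower (23.3%) and 5 higher (16.7%), with SF3B5 lower (log2 fold change −1.66) and SNRNP27 higher (0.93). The lower count of the spliceosome list was 2 without library 2 of either group and 3 without OTX2 library 3.

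Of 67 histone modifiers and remodelers 8 were lower (11.9%, beside 7.93% of all genes) and 7 higher (10.4%, beside 21.5%) as deposited, and 8 were lower and none higher under median-ratio scaling. KDM4A and EP300, among the 8, passed the filter through wild type alone. The lower count was 3 without library 2 or 3 of either group, and none was higher without OTX2 library 2. SUZ12, a core subunit of the repressive complex PRC2, was at 3.73, 2.86 and 2.89 TPM with OTX2 overexpression, against 8.33, 13.3 and 13.2 TPM in wild type (adjusted p = 0.0022, log2 fold change −1.58, SE 0.206), and NSD1, a histone H3 lysine methyltransferase, at 9.16, 6.07 and 7.01 TPM with OTX2 overexpression, against 16.2, 22.02 and 24.5 TPM in wild type (adjusted p = 0.00325, log2 fold change −1.38). Of 17 DNA methylation genes 2 were lower (11.8%) and 1 higher (5.88%), against 1 lower and none higher without library 2 of either group. TDG, a thymine DNA glycosylase of active demethylation, was at 1.38, 0.431 and 0.181 TPM with OTX2 overexpression, against 7.01, 24.98 and 18.97 TPM in wild type (adjusted p = 0.0022, log2 fold change −3.34). DNMT1, the maintenance methyltransferase, was at 3269, 2512 and 2532 TPM with OTX2 overexpression, against 2338, 3057 and 2595 TPM in wild type, with overlapping groups (adjusted p = 0.804, log2 fold change 0.05).

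Histone genes were grouped after the data were seen, and 5 were measured. HIST1H2BD was at 1.62, 7.71 and 2.45 TPM with OTX2 overexpression, against 54.8, 88.8 and 51.9 TPM in wild type (adjusted p = 0.0011, log2 fold change −3.91), and H2AFZ, the H2A.Z variant, at 193, 73.2 and 82.9 TPM with OTX2 overexpression, against 472, 732 and 793 TPM in wild type (adjusted p = 0.00264, log2 fold change −2.61). H1FOO, the linker histone of oocytes, was higher as deposited, at 1126, 1427 and 1628 TPM with OTX2 overexpression, against 790.2, 926 and 952 TPM in wild type (adjusted p = 0.0232, log2 fold change 0.64), but not under median-ratio scaling (adjusted p = 0.214), nor without library 2 of either group or OTX2 library 3 (up to 0.0934). Histone messages without a poly(A) tail are poorly captured by oligo-dT priming, and near-identical copies share reads, so these values are uncertain.

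Among mitochondrial genes the nuclear-encoded respiratory chain had more lower than higher genes. Of 58 tested 17 were lower (29.3%, beside 7.93% of all genes) and 5 higher (8.62%, beside 21.5%), with a median of −0.11. NDUFA2 of complex I was at 13.9, 9.21 and 14.99 TPM with OTX2 overexpression, against 66.8, 78.4 and 86.6 TPM in wild type (adjusted p = 0.000226, log2 fold change −2.53, SE 0.195). COX7A2 of complex IV was at 53.2, 49.01 and 59.9 TPM with OTX2 overexpression, against 178, 185 and 205 TPM in wild type (adjusted p = 0.000187, log2 fold change −1.79), and NDUFB2 at 217, 206 and 220.0 TPM with OTX2 overexpression, against 363, 419.9 and 384 TPM in wild type (adjusted p = 0.00251, log2 fold change −0.85). UQCRB of complex III was higher, at 57.7, 58.1 and 66.4 TPM with OTX2 overexpression, against 19.4, 28.04 and 28.8 TPM in wild type (adjusted p = 0.00267, log2 fold change 1.24), and remained so under median-ratio scaling (adjusted p = 0.0122). The lower count was 11 and the higher count 2 without OTX2 library 2.

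TFAM, which packages and transcribes mitochondrial DNA, was among the 15 named genes with the lowest fold changes. It was at 20.4, 2.23 and 1.71 TPM with OTX2 overexpression, against 61.7, 116 and 166 TPM in wild type (adjusted p = 0.00612, log2 fold change −4.22, SE 0.728), and OTX2 library 1 lay well above the other two. Of 30 mitochondrial DNA maintenance genes 4 were lower (13.3%, beside 7.93% of all genes) and 5 higher (16.7%, beside 21.5%), and the higher count was 1 without OTX2 library 2 and 2 without wild-type library 2. NRF1, a regulator of nuclear genes for mitochondria, was at 0.2999, 0.685 and 0.575 TPM with OTX2 overexpression, against 2.99, 5.01 and 5.21 TPM in wild type (adjusted p = 0.00156, log2 fold change −1.81), and TFB2M, a transcription factor of the organelle, at 0.319, 0.571 and 0.111 TPM with OTX2 overexpression, against 1.98, 1.58 and 4.405 TPM in wild type (adjusted p = 0.0107, log2 fold change −1.39), and both passed the filter through wild type alone. SLIRP, which stabilises mitochondrial messages, was lower (log2 fold change −1.45), but its call was lost without OTX2 library 3 (adjusted p = 0.0554) or wild-type library 2 (0.0564). SUCLA2, a succinyl-CoA ligase subunit, was higher at 32.9, 26.7 and 27.3 TPM with OTX2 overexpression, against 15.1, 12.8 and 14.4 TPM in wild type (adjusted p = 0.00308, log2 fold change 0.99).

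None of the 13 protein genes of the mitochondrial genome was called as deposited, and 5 were called lower under median-ratio scaling. That count was 0 without OTX2 library 2 and lay between 0 and 8 over the libraries left out. COX2 was at 78846, 72091 and 73728 TPM with OTX2 overexpression, against 82163, 89955 and 90182 TPM in wild type, which is below wild type in every library, and COX1 at 71273, 78838 and 78813 TPM with OTX2 overexpression, against 84412, 77445 and 79393 TPM in wild type, where the groups overlapped. Mitochondrial ribosomal proteins had 17 higher and 6 lower genes of 65 (26.2 and 9.23%), near the shares of all genes (21.5 and 7.93%), and their median of 0.24 was near the 0.28 of all genes. They had 4 higher and 11 lower under median-ratio scaling. Without OTX2 library 2 there were 5 higher and 3 lower. MRPL39 was at 27.3, 29.5 and 28.1 TPM with OTX2 overexpression, against 16.1, 9.86 and 11.02 TPM in wild type (adjusted p = 0.00417, log2 fold change 1.17) and MRPL3 at 45.7, 52.9 and 53.05 TPM with OTX2 overexpression, against 19.5, 24.7 and 25.1 TPM in wild type (adjusted p = 0.0022, log2 fold change 1.10). MRPS18C was lower, at 3.44, 2.37 and 4.76 TPM with OTX2 overexpression, against 17.9, 14.4 and 11.9 TPM in wild type (adjusted p = 0.00206, log2 fold change −1.81).

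Maternal oocyte transcripts had the highest median of the lists with at least 10 tested members. Of 42 tested 19 were higher (45.2%, beside 21.5% of all genes) and none lower, with a median of 0.50 beside 0.28 for all genes. The higher count was 8 after rescaling to nuclear genes, where 7.78% of all genes were higher, and 5 under median-ratio scaling, where 3.40% were. The medians were 0.37 and 0.22, beside 0.16 and 0.02 for all genes. It ranged from 7 to 27 higher genes when each library was left out. There were 7 (16.7%, beside 4.98% of all genes) without OTX2 library 2 and 27 (64.3%, beside 25.5%) without OTX2 library 1. The 5 genes called under every one of the 3 scalings were NPM2, KHDC3L, FBXO15, LHX8 and CPEB1. Under median-ratio scaling the higher count lay between 0 and 9 over the libraries left out. It was 0 without OTX2 library 3, where 73 of all 8550 genes were higher, so these 5 calls rest on all 6 libraries. NPM2, a histone chaperone of the egg, was at 81.2, 66.95 and 84.9 TPM with OTX2 overexpression, against 43.1, 39.4 and 37.5 TPM in wild type (adjusted p = 0.00322, log2 fold change 0.94, SE 0.137). KHDC3L, of the subcortical maternal complex, was at 7.47, 8.46 and 7.81 TPM with OTX2 overexpression, against 2.48, 4.21 and 2.98 TPM in wild type (adjusted p = 0.00561, log2 fold change 1.10). CPEB1, which controls cytoplasmic polyadenylation of stored messages, was at 30.8, 36.2 and 40.9 TPM with OTX2 overexpression, against 18.7, 11.2 and 18.1 TPM in wild type (adjusted p = 0.00755, log2 fold change 1.14).

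BTG4, an adaptor of deadenylation that clears maternal messages, was abundant, at 6833, 6705 and 6566 TPM with OTX2 overexpression, against 4856, 4054 and 3927 TPM in wild type (adjusted p = 0.00799, log2 fold change 0.65). Its groups did not overlap, and it was not called under median-ratio scaling (adjusted p = 0.0843). DPPA3, a maternal factor that guards methylation, was likewise at 1862, 1708 and 1758 TPM with OTX2 overexpression, against 1317, 1134 and 1024 TPM in wild type (adjusted p = 0.0122, log2 fold change 0.62), and it lost its call under median-ratio scaling (adjusted p = 0.142) and without library 2 of either group (up to 0.0525). BMP15, OOEP, ZP2, ZP3, ZP4, NLRP5, TLE6, ZAR1 and PADI6 overlapped between the groups.

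Of 51 tested genes for deadenylation, decapping and decay 12 were higher (23.5%), near the 21.5% of all genes, and 7 lower (13.7%, beside 7.93%), and without OTX2 library 2, 3 were higher and 3 lower. EXOSC3 and EXOSC10, of the RNA exosome, were lower. EXOSC3 was at 0.822, 1.29 and 1.91 TPM with OTX2 overexpression, against 12.1, 15.2 and 15.2 TPM in wild type (adjusted p = 0.000224, log2 fold change −2.72, SE 0.206), and EXOSC10, its nuclear nuclease, at 1.75, 1.29 and 1.11 TPM with OTX2 overexpression, against 8.51, 14.7 and 16.3 TPM in wild type (adjusted p = 0.000697, log2 fold change −2.53). Another exosome subunit, EXOSC8, was higher as deposited (log2 fold change 0.85) but not under median-ratio scaling (adjusted p = 0.0793). Of 29 polyadenylation factors 4 were lower (13.8%) and 3 higher (10.3%), with 1 of each without library 2 of either group, and CLP1, a cleavage factor, was at 5.61, 7.41 and 7.21 TPM with OTX2 overexpression, against 13.95, 34.7 and 26.01 TPM in wild type (adjusted p = 0.00672, log2 fold change −1.66).

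Of 53 genes of the spindle and centromere 12 were higher (22.6%), near the 21.5% of all genes, and none was lower, beside 7.93% of all genes. There were 2 higher and 1 lower under median-ratio scaling. The higher count as deposited was 3 without OTX2 library 2 and 5 without wild-type library 2. CENPH, of the inner kinetochore, was at 109.6, 125 and 129.6 TPM with OTX2 overexpression, against 73.5, 56.9 and 53.02 TPM in wild type (adjusted p = 0.00402, log2 fold change 0.99). Cell cycle regulators gave 6 higher and 4 lower genes of 50. The higher share was below the 21.5% of all genes, and the lower share was near the 7.93%. There were 2 higher without library 2 of either group and 13 without OTX2 library 1. These counts followed the shares of all genes that were higher. Those shares were 4.98% without OTX2 library 2, 6.58% without wild-type library 2 and 25.5% without OTX2 library 1. PTTG1, securin, was abundant and lower, at 7580.0, 6080.2 and 5677 TPM with OTX2 overexpression, against 10948, 14333 and 10534 TPM in wild type (adjusted p = 0.00783, log2 fold change −0.89). ORC6, of the origin recognition complex, was higher at 484, 457 and 437 TPM with OTX2 overexpression, against 257, 219 and 223 TPM in wild type (adjusted p = 0.00178, log2 fold change 0.98), and CDKN1A, the p21 inhibitor, at 6.51, 6.81 and 7.64 TPM with OTX2 overexpression, against 3.03, 2.92 and 2.48 TPM in wild type (adjusted p = 0.00308, log2 fold change 1.07). CHEK2, a checkpoint kinase, and WEE1, which restrains CDK1, were lower, with log2 fold changes of −1.49 and −1.56. WEE1 passed the filter through wild type alone. ORC6, CDKN1A, PTTG1 and CHEK2 kept their calls under median-ratio scaling.

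Of 22 tested p53 targets and apoptosis genes 6 were lower (27.3%, beside 7.93% of all genes) and 5 higher (22.7%, near the 21.5% of all genes). Without OTX2 library 2, 4 were lower and 1 higher, and GADD45B, among the lower ones, passed the filter through wild type alone. MCL1, an anti-apoptotic BCL2 relative, was at 1.27, 0.681 and 0.508 TPM with OTX2 overexpression, against 3.78, 8.94 and 10.9 TPM in wild type (adjusted p = 0.00377, log2 fold change −2.21). PMAIP1, a pro-apoptotic one, was also lower, at 1.32, 2.77 and 1.27 TPM with OTX2 overexpression, against 6.71, 6.7 and 8.08 TPM in wild type (adjusted p = 0.00292, log2 fold change −1.59). BCL2L1, anti-apoptotic like MCL1, was higher at 49.8, 69.8 and 75.04 TPM with OTX2 overexpression, against 34.9, 29.3 and 38.4 TPM in wild type (adjusted p = 0.0112, log2 fold change 0.89), and lost its call under median-ratio scaling (adjusted p = 0.0531) and without OTX2 library 2 (0.0546). Of 17 integrated and unfolded protein stress genes 1 was lower (5.88%) and 3 higher (17.6%), both below the shares of all genes. Of the 3, 1 passed the filter through OTX2 libraries alone. None was higher under nuclear rescaling, median-ratio scaling or quantile normalization, or without OTX2 library 2 or 3 or wild-type library 2. DDIT3, also known as CHOP, was the lower one, at 33.2, 22.96 and 29.8 TPM with OTX2 overexpression, against 51.95, 96.4 and 91.6 TPM in wild type (adjusted p = 0.00642, log2 fold change −1.41). Proteasome genes gave 11 higher (27.5%) and 6 lower of 40, beside 21.5 and 7.93% of all genes, and 5 higher and 3 lower without OTX2 library 2. Ubiquitin and SUMO genes gave 14 higher (28.6%) and 2 lower (4.08%) of 49, and 6 higher and 1 lower without OTX2 library 2. SUMO2, a ubiquitin-like modifier, was higher at 1853, 2006 and 2016 TPM with OTX2 overexpression, against 1206, 1180.1 and 1055 TPM in wild type (adjusted p = 0.00371, log2 fold change 0.77).

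The 15 named genes with the largest falls, chosen among those that held under all 3 scalings, included several outside these groups. ANG, angiogenin, was the lowest, at 1.04, 1.46 and 1.597 TPM with OTX2 overexpression, against 61.04, 133 and 55.7 TPM in wild type (adjusted p = 8.12e-05, log2 fold change −5.05, SE 0.307), but it shares its locus with RNASE4, and reads of ANG and RNASE4 cannot be told apart here. TMSB10, an actin-binding thymosin, was abundant in wild type, at 236, 46.99 and 36.7 TPM with OTX2 overexpression, against 699, 1317 and 1814 TPM in wild type (adjusted p = 0.00495, log2 fold change −3.98). RTN4, a reticulon of the endoplasmic reticulum, was at 2.84, 0.371 and 0.389 TPM with OTX2 overexpression, against 15.5, 41.3 and 32.7 TPM in wild type (adjusted p = 0.00158, log2 fold change −3.88). BECN2, a relative of the autophagy gene BECN1, was at 1.197, 0.516 and 1.11 TPM with OTX2 overexpression, against 15.4, 25.3 and 36.3 TPM in wild type (adjusted p = 0.000273, log2 fold change −3.72). RBM7, an exosome cofactor, and ZNF622, a factor of large ribosomal subunit maturation, had log2 fold changes of −3.55 and −3.53. In TMSB10, RBM7, TFAM and RPS19, OTX2 library 1 was the highest of its group by far. That it lay below every wild-type library adds nothing, because only genes without overlap between the groups could be chosen as the 15.

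The largest rises that held under all 3 scalings were smaller than these falls. After ID3 came TMEM243, a membrane protein, at 24.1, 37.2 and 32.03 TPM with OTX2 overexpression, against 10.04, 6.35 and 10.9 TPM in wild type (adjusted p = 0.00248, log2 fold change 1.68), and NUDT9, an ADP-ribose hydrolase, at 6.22, 11.2 and 9.44 TPM with OTX2 overexpression, against 1.58, 1.37 and 3.71 TPM in wild type (adjusted p = 0.00713, log2 fold change 1.67). RGS2, a regulator of G-protein signalling, was at 203, 206 and 227 TPM with OTX2 overexpression, against 70.5, 61.7 and 79.6 TPM in wild type, 3.00-fold higher by mean with little spread (adjusted p = 0.000336, log2 fold change 1.58, SE 0.134). GNG10, a G-protein gamma subunit, was at 582, 665 and 647 TPM with OTX2 overexpression, against 258, 239.6 and 191 TPM in wild type (adjusted p = 0.000717, log2 fold change 1.46). FANCL, the ubiquitin ligase of the Fanconi anaemia pathway, was at 481, 650.1 and 654 TPM with OTX2 overexpression, against 297, 199.9 and 185 TPM in wild type (adjusted p = 0.00331, log2 fold change 1.40), and SKA1, of the spindle and kinetochore complex, at 138, 213 and 234 TPM with OTX2 overexpression, against 65.1, 68.4 and 88.8 TPM in wild type (adjusted p = 0.0043, log2 fold change 1.36). The copper transporters SLC31A2 and SLC31A1 moved in opposite directions. SLC31A2 was at 48.9, 68.2 and 82.7 TPM with OTX2 overexpression, against 25.3, 22.1 and 24.9 TPM in wild type (adjusted p = 0.00264, log2 fold change 1.40), and SLC31A1, the plasma membrane importer, at 4.56, 2.77 and 4.26 TPM with OTX2 overexpression, against 19.04, 44.3 and 48.4 TPM in wild type (adjusted p = 0.00151, log2 fold change −2.89). Over all 120 tested genes with symbols that start with SLC, 32 were higher (26.7%) and 6 lower (5.00%) as deposited, near the 21.5 and 7.93% of all genes. Of the 6, 1 passed the filter through wild type alone. Under median-ratio scaling 6 were higher and 7 lower. Without OTX2 library 2 there were 5 higher and 3 lower.

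Library 1 of each group lay nearest to the other group. The leading component of variation held 73.73% of the variance of all genes, and OTX2 libraries 1 to 3 scored −20.87, −37.51 and −38.11 on it, against 18.92, 38.05 and 39.51 for wild-type libraries 1 to 3. The 2-fold lower genes were at a median of 21.0, 13.7 and 16.1% of the wild-type mean in the OTX2 libraries, against 66.9, 105.9 and 125.4% in the wild-type libraries. Of the 468 genes, 126, 172 and 154 were under 1 TPM in the OTX2 libraries, against none in any wild-type library. These values describe genes chosen by the same contrast and test nothing.

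The span of a gene was not used to call it. The lower genes had a median annotated span, introns included, of 8.83 kb, and 6.98 kb for the 2-fold lower ones, against 32.6 kb for the higher genes, 39.3 kb for the uncalled and 34.2 kb for all genes with a span. Of the 2-fold lower genes 59.8% spanned less than 10 kb, against 20.5% of all genes. Genes without an assigned name made up 16.1% of the lower genes, 6.43% of the higher and 8.15% of all. This is a description across genes, which are not independent replicates.

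**Figure D4:**
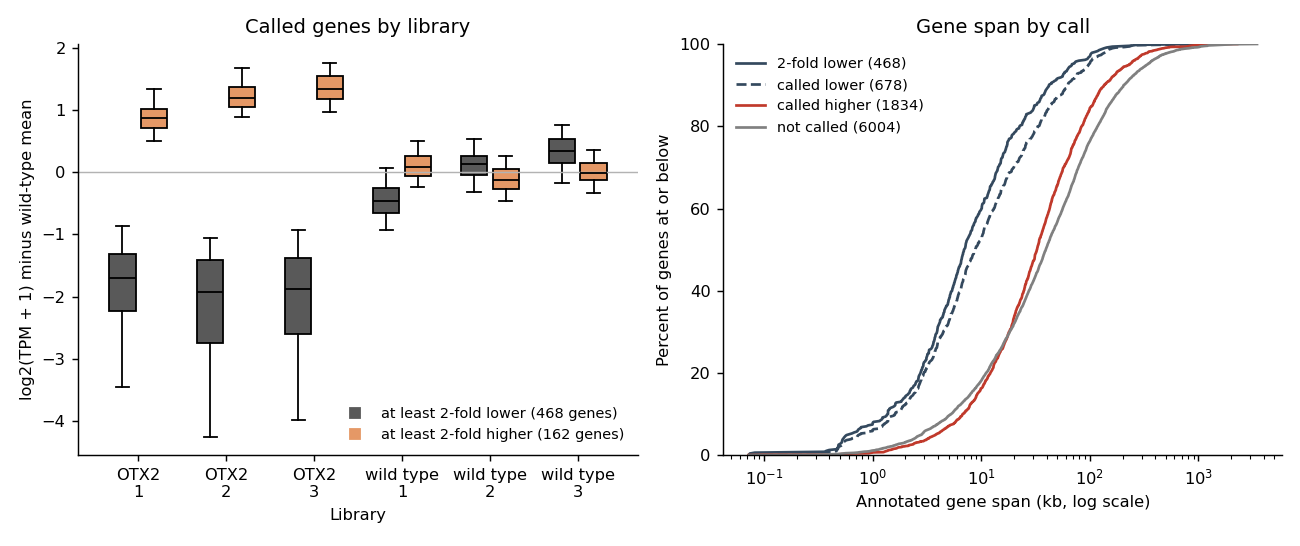
Left, log2(TPM + 1) minus the wild-type mean (vertical axis) in each library for genes at least 2-fold lower (grey) and higher (orange), as medians, quartile boxes and whiskers from the 5th to the 95th percentile. Right, the percent of genes (vertical axis) at or below a given annotated span in kb (horizontal log axis), where the 2-fold lower genes have a median of 6.98 kb and uncalled genes 39.3 kb.

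Some of the 2-fold lower genes lay side by side. A cluster was taken as at least 4 of them with gaps of at most 100 kb. On chromosome 9, all 6 tested genes at chr9:22965206-23069983 were lower, with UBTFL1 as the only named one, and their summed mean fell to 46.5 TPM with OTX2 overexpression, against 762 TPM in wild type. All 8 genes at chr6:72732006-72892480 and all 9 at chr8:44007543-44197510 were unnamed. Their summed means were 17.6 and 21.6 TPM with OTX2 overexpression, against 238 and 306 TPM in wild type. At chr7:20735437-20898253 6 of 11 were lower, HIST1H2BD among them. Neighbours of a tandem family can share reads, so the number of separate lower genes in these clusters is uncertain.

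The change with OTX2 overexpression was also measured in pEPSCs. The systems share no libraries and were normalized apart, so only the fold changes are compared, by a limma interaction contrast over the 7406 genes measured in both. The contrast fits a single spread per gene over both systems, although the regulators named below had larger SEs in embryos. For TFAP2C the SE was 0.324 in embryos and 0.0975 in pEPSCs. The interaction p-values may therefore be too small. The change differed for 66.0% of these genes, higher in embryos than in pEPSCs for 44.7% and lower for 21.2%. The median log2 fold change of these genes was 0.27 in embryos and −0.15 in pEPSCs. Differences as deposited include this shift toward higher in embryos. OTX2 had log2 fold changes of 4.89 in embryos and 5.25 in pEPSCs. The difference of −0.36 was not called as deposited (SE 0.155, adjusted p = 0.0584), and it was called under median-ratio scaling, at −0.47 (adjusted p = 0.0184), and after nuclear rescaling, at −0.43 (adjusted p = 0.0295). NANOG was lower in both, with log2 fold changes of −3.95 in embryos and −2.59 in pEPSCs, and the difference of −1.36 was not called (SE 0.699, adjusted p = 0.103).

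TFAP2C differed between the systems. In pEPSCs it was at 16.05, 19.2 and 15.6 TPM with OTX2 overexpression, against 17.2, 15.6 and 17.5 TPM in wild type. The log2 fold change was −3.27 in embryos and 0.01 in pEPSCs, a difference of −3.28 (SE 0.379, adjusted p = 1.06e-05). KLF4 was lower in both and more so in embryos, with a difference of −1.19 (SE 0.291, adjusted p = 0.00304). DNMT3B, LIN28A and LIN28B were called lower in pEPSCs and were not called in embryos, and the differences of 3.08, 1.31 and 2.20 passed the test.

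Ribosomal protein genes also differed. The 78 measured in both had a median log2 fold change of −1.12 in embryos and 0.24 in pEPSCs. In pEPSCs 52 of them were higher and 14 lower, where 34.2% of all shared genes were higher and 47.7% lower. The change was lower in embryos for 60 and higher for 1 of them, beside 21.2% lower and 44.7% higher of all shared genes. Of 53 spindle and centromere genes in both, 7 were higher and 40 lower in pEPSCs. Their change was higher in embryos for 42 and lower for 1, beside the same shares of all shared genes. The median of these 53 was 0.29 in embryos, near the 0.27 of all shared genes. In pEPSCs it was −0.66, beside −0.15, so the difference lay on the pEPSC side. Of the 385 genes that were 2-fold lower in embryos and also measured in pEPSCs, 159 were higher and 170 lower in pEPSCs, with a median of −0.04.

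**Figure D5:**
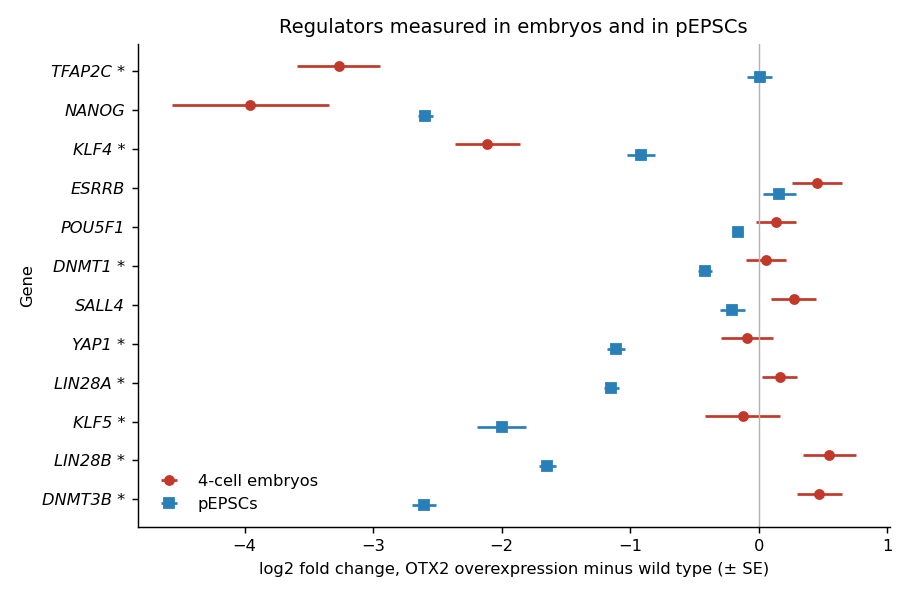
Log2 fold change of OTX2 overexpression minus wild type with its SE (horizontal axis) for 12 regulators (rows) in 4-cell embryos (red circles) and pEPSCs (blue squares), ordered by the difference, with an asterisk where the interaction had an adjusted p under 0.05. TFAP2C is at −3.27 in embryos and 0.01 in pEPSCs, and DNMT3B at 0.47 in embryos and −2.60 in pEPSCs.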

How the data were processed

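The deposited embryo data give TPM for each gene and library, as the authors computed it per the file headers, and each column sums to between 997469 and 998040 with genes under a mean of 1 TPM absent. The authors' own fold change, p-value and call columns were not used. Their mean normalized count per gene, a signal in the deposited table per the file headers, had a median of 435 over genes and entered no test. Per the submitters' processing notes the build was Sscrofa11.1 and the tools included Trim Galore 0.6.6, STAR 2.7.3, StringTie 2.1.4 and featureCounts 2.0.0, with no role given. Spans and coordinates came from a RefSeq table of the same assembly, matched by symbol for 8516 of 8550 genes.

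Values were analysed as log2(TPM + 1) for genes at 1 TPM or more in at least 3 libraries, with limma 3.58.1 (trended, robust, statmod 1.5.0) in R 4.3.3 and Benjamini-Hochberg adjustment over all genes. Every adjusted p is from limma, with 3 libraries per group and a threshold of 0.05. Tests of single values per library were exact permutation tests, two-sided. In simulated data with this design 63% of 2-fold changes and 93% of changes of 2 on the log2 scale were recovered, with 10 false calls. The simulation drew independent normal noise for each gene and changed 100 genes at each size. It held no library effect and no shift of the bulk of genes, so its false calls do not cover errors from those sources. Alternatives were rescaling to nuclear genes, median-ratio and quantile scaling, a pseudocount of 0.1, no filter or 5 TPM, the replicate number as a block, and each library left out. Leaving out a library under median-ratio scaling was added after seeing the data. Named genes were OTX2, a developmental panel, the 15 largest falls and rises among genes that held under 3 scalings, did not overlap and reached 5 TPM in the higher group, the 10 most abundant, all members of 4 lists and up to 6 members of each other list by adjusted p. Names turned into dates (10) and unnamed loci were not named, and a few genes left out of the lists are not reported here. The members, lists and rules were chosen with earlier results of these data known. Plots used matplotlib 3.10.9, and the other steps ran in Python 3.11.15 with scipy 1.17.1, numpy 2.4.6 and pandas 2.3.3.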

Additional observations from a re-analysis of the deposited data

Results flagged for a closer look

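By the limma interaction test, the change with OTX2 differed between embryos and pEPSCs for 8 of the 13 developmental regulators measured in both, where 66.0% of all genes measured in both differed by the same test. TFAP2C had a difference, embryo minus pEPSC on the log2 scale, of −3.279, and KLF4 of −1.193, both lower in embryos. The other 6 were higher in embryos, with differences of 1.875 for KLF5, 1.02 for YAP1, 0.4724 for DNMT1, 3.076 for DNMT3B, 1.311 for LIN28A and 2.196 for LIN28B. These 6 were lower in pEPSCs and not called in embryos. The difference of DNMT1 was not called under median-ratio scaling (adjusted p = 0.13), after rescaling to nuclear genes (0.0655), with the replicate block, or when any 1 of 5 libraries was left out. Of all genes measured in both, 44.7% had a higher and 21.2% a lower change in embryos, so the share of regulators that differed is no larger than that of all genes.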

How the results depend on the processing

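Counts of lower genes changed little with the scaling, and counts of higher genes changed most. Genes called higher numbered 662 after rescaling to nuclear genes, 291 with median-ratio scaling, 611 with quantile normalization and 1040 with the replicate block, against 1835 as deposited. They ranged from 426 to 2181 when each library was left out, and under median-ratio scaling with each library left out they numbered 48 to 510, among them 340, 82 and 101 without wild-type libraries 1, 2 and 3. Genes 2-fold higher numbered 98, 25 and 58 under the 3 scalings in the same order and 318 with a pseudocount of 0.1, against 162. They ranged from 102 to 379 with each library left out, and from 11 to 73 under median-ratio scaling, with 19 without OTX2 library 2 and 46, 21 and 23 without wild-type libraries 1, 2 and 3. Genes called lower ranged from 437 to 769 with each library left out, and genes 2-fold lower numbered 308 with the 5 TPM filter, where fewer genes were tested. Of the 100 named lower genes, all were called lower under each scaling. Of the 109 named higher genes, 79, 49 and 76 kept their call after nuclear rescaling, median-ratio scaling and quantile normalization. These counts are no independent test of the scalings. The largest falls and rises were named only if called as deposited, after nuclear rescaling and under median-ratio scaling. Many others were named for a small adjusted p. The scalings also lowered the median of all genes from 0.28 to 0.16, 0.02 and 0.13, so lower calls were hard to lose. Correlations of deviations from the group means between same-numbered libraries were −0.209, −0.166 and 0.0652. They cannot decide whether the replicate numbers pair the libraries, because the labels name no shared collection and a batch could also change the contrast itself. With the block, 5 named lower and 18 named higher genes lost their call.

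Directions turned for 8 panel genes, none of them called. POU5F1 was at −0.024, −0.16 and −0.075 after nuclear rescaling, median-ratio scaling and quantile normalization, DUXA at −0.12, −0.26 and −0.21, and DNMT1 at −0.11, −0.25 and −0.062. Under median-ratio scaling LIN28A was at −0.13 and SALL4 at −0.026, and LIN28A was at −0.036 with quantile normalization. With each library left out, KLF5 ranged from −0.44 to 0.14, YAP1 from −0.27 to 0.0095, DPPA4 from −0.66 to 0.11 and DNMT1 from −0.070 to 0.16. The cause was not tested.

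Reads per library are unknown, TPM are shares, and 3 libraries per group of unknown origin limit every comparison. RNA per embryo was not measured, so a fall of a transcript and a rise of the others' share cannot be told apart. Levels under a few TPM are understated in fold change.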
